A study of Apis mellifera with 24 samples.

Results

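In 165 honey bee genes, sisters of the same lineage differed widely in the share of a gene's allele reads that was assigned to the father's copy. These genes were chosen on the reads that could be assigned to a parental allele in the brains of 24 single workers. Paternal share is the percentage of a gene's allele reads that came from the drone's allele in 1 bee. Of 3524 genes present in both allele tables, 2420 had at least 30 allele reads in each of the 24 bees. A gene was taken when the highest and the lowest of the 6 sisters lay at least 40 percentage points apart in at least 2 of the 4 lineages. A further 17 genes that passed were left out because their summed paternal share was 55% or more in all 4 lineages, and 2255 genes with enough reads stand as the background.

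The bees were daughters of crosses made in both directions between Africanized (Afr) and European (Eur) stock, written with the mother first, and spent about 18 days in colonies without a queen. The Afr x Eur cross is represented by L888 and L894, the Eur x Afr cross by L875 and L882. L888 and L875 formed block A, and L894 and L882 formed block B. Each lineage gave 3 reproductive and 3 sterile workers, and polyA RNA of each brain was sequenced alone. Each cross direction had 1 lineage per block, so cross direction and family cannot be told apart within a block. The title of the series names the kinship theory, which concerns conflict between the maternal and the paternal copies of genes. The labels do not say how many drones fathered a lineage; its bees are called sisters.

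A honey bee drone develops from an unfertilised egg and carries a single set of chromosomes, so that his sperm are alike and full sisters receive the same paternal copy of each gene. The queen carries a pair of sets that recombine when eggs form, so that sisters can receive different maternal copies. Allele-specific RNA sequencing tells the copies apart by sequence variants that differ between the parents. The tables name genes by GB identifiers without gene names, and 0 of the 15314 identifiers occur in the reference table used. Roles, positions and sequences are therefore not given for any gene, and the labelled tissue was not checked against markers.

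Allele reads per bee totalled 3.20 to 9.31 M (mega) reads, and expected counts of total expression totalled 5.19 to 16.7 M. Allele reads are not independent molecules, and intervals on single shares cover counting error only. The 10 most abundant genes held 9.38% to 71.2% of the expected counts of a bee, and TMM factors, which offset such differences in the total counts, ran from 0.477 to 1.91. The bee L888 Sterile 2 stood apart from its sisters, as described with the values of single bees, and the main counts that rest on L888 are given with and without it. The letters A and I in the headers mark opposite statuses in L888 and in the other lineages, and status was taken from the labels.

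The 165 genes passed 40 points in 376 of their 660 pairs of gene and lineage. The number of these genes at or over 40 points was 122 in L888, 60 in L875, 114 in L894 and 80 in L882. Because this count is the rule itself, it is a description. Over all 2420 genes the share at or over 40 points was 12.3% in L888, 4.5% in L875, 8.72% in L894 and 5.74% in L882, and 7.52% reached it in at least 2 lineages. When L888 Sterile 2 was left out, L888 had 62 of the 165 genes and 6.12% of all genes at or over 40 points. The median sister range of the 165 genes was 47.4 points in L888, 26.8 in L875, 46.8 in L894 and 39.1 in L882, where the other genes had medians of 10.8, 7.04, 9.40 and 7.53 points in the same order. The L888 medians without that bee were 29.4 points in the 165 genes and 7.83 in the other genes. In the lineages where a chosen gene stayed under 40 points, its range still had a median of 17.2 to 27.02 points.

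Of the 165 genes, 122 passed in exactly 2 lineages, 40 in 3 and 3 in all 4. Exactly L888 and L894 passed in 46 genes, exactly L888 and L882 in 27 and exactly L894 and L882 in 19. This order rested on 1 bee: without L888 Sterile 2 the same combinations held 20, 14 and 24 of the 165 genes. Exactly L875 and L882 passed in 5 genes, and in 7 without that bee. The threshold cut through a continuum: by the second largest of the 4 ranges, GB45378 (40.1 points) and GB47257 (40.2) lay just inside, and GB55544 (39.98) and GB45345 (39.96) just outside. The chosen genes had fewer allele reads than usual, with a median of 253 per bee against 541 over all 2420 genes.

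**Figure D1:**
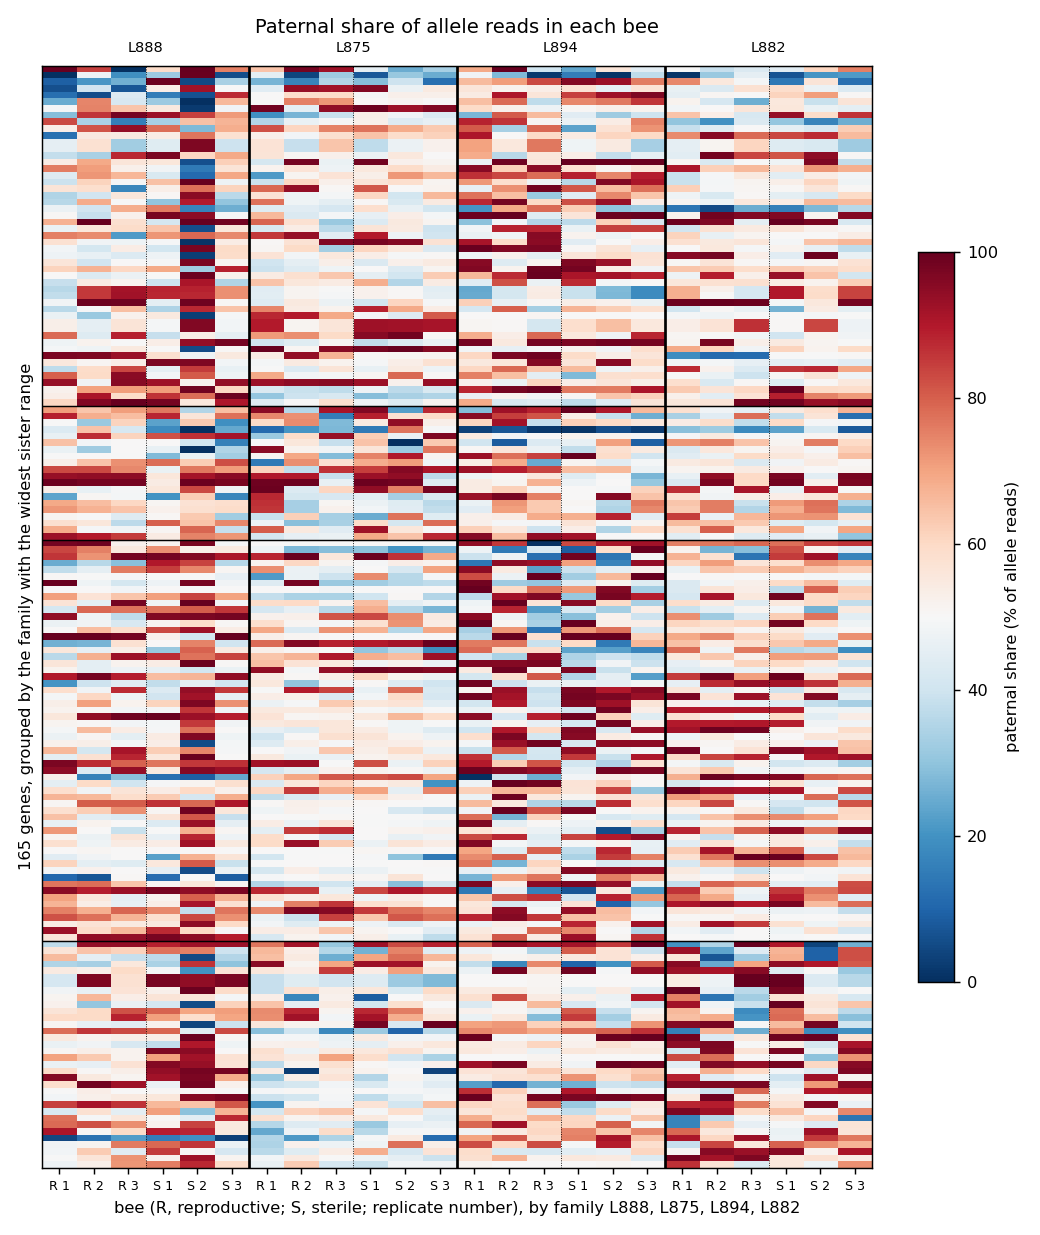
Paternal share (%) of the 165 genes (rows) in the 24 bees (columns; R reproductive, S sterile), with genes grouped by the lineage of their widest sister range. White is a share of 50%, red is paternal and blue is maternal. The column of L888 Sterile 2 holds more dark cells than those of its sisters, with 80 genes at 80% or more and 22 at 20% or less.

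The shares of these genes were most often near balance and next most often near the paternal extreme. The rule chose the genes on these same shares, and a wide range requires sisters far from each other. The levels and their contrast with the other genes are therefore a description. In the 376 pairs that passed, 40.1% of the 2256 values lay at 40 to 60%, 14.8% between 60 and 80%, and 29.8% at 80% or more, with 21.2% at 90% or more. On the maternal side 10.8% lay between 20 and 40% and 4.48% at 20% or less. Among the other 2255 genes 80.8% of values lay at 40 to 60%, 2.98% at 80% or more and 0.540% at 20% or less. The paternal extreme was thus filled more often than the maternal one by both sets of genes. A share within 1 point of 50%, from 49 to 51%, was found in 9.92% of all values of the chosen genes and in 34.3% of those of the other genes.

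**Figure D2:**
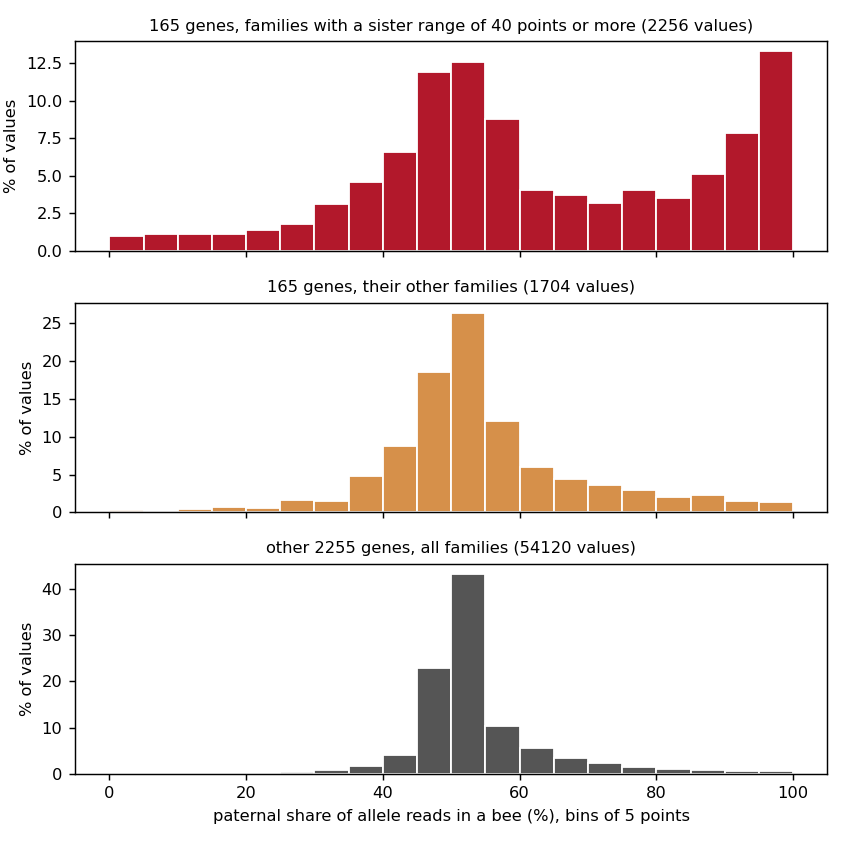
Percentage of values in bins of 5 points of paternal share, for the 165 genes in lineages with a sister range of 40 points or more (top, 2256 values), for the same genes in their other lineages (middle, 1704 values) and for the other 2255 genes (bottom, 54120 values). The top panel has 2 heaps, near 50% and above 90%; the bottom panel has 1 heap near 50%.

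Families were sorted by where their lowest and highest sister lay. With a range of 40 points or more, a lowest sister at 40% or more sets the highest at 80% or more. A highest sister at 60% or less likewise sets the lowest at 20% or less, so the patterns are a description. In 185 of 376 pairs (49.2%) the lowest sister was at 40% or more and the highest at 80% or more. This pattern is called between balance and paternal expression here, and it describes allele reads only. In 171 pairs (45.5%) the sisters reached from under 40% to over 60%. In 20 pairs (5.32%) they were spread between 20% or less and at most 60%. The first pattern made up 57 of 122 pairs in L888, 27 of 60 in L875, 53 of 114 in L894 and 48 of 80 in L882. The maternal pattern was met in 10 pairs in L888, 4 in L875, 5 in L894 and 1 in L882. Leaving out L888 Sterile 2, 316 pairs remained over 40 points, of which 161 (50.9%) had the first pattern, 140 (44.3%) the second and 15 (4.75%) the third; in L888 these were 33, 24 and 5 pairs.

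In most pairs 1 gap took up much of the sister range. These pairs were chosen for a wide range and the gap was not computed for other genes, so the values are a description. When the 6 sisters of a pair were ordered, the largest gap between neighbours had a median of 31.03 points, and it took up at least 50% of the whole range in 253 of 376 pairs (67.3%). Above the gap stood 1 sister in 90 pairs, 2 in 73, 3 in 69, 4 in 59 and 5 in 85. With 1 or 5 sisters above it, the gap set a single bee apart. Among the 69 pairs with 3 sisters above the gap, these were the 3 reproductive sisters in 9 pairs, the 3 sterile sisters in 2 and sisters of both statuses in the others. A single sister above the gap was reproductive in 30 pairs and sterile in 60, and without L888 Sterile 2 it was reproductive in 36 and sterile in 32. Without that bee the gap took up at least 50% of the range in 211 of 316 pairs (66.8%), with 1 sister above it in 68 pairs, 2 in 71, 3 in 63, 4 in 67 and 5 in 47, where L888 has 5 sisters.

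GB46902 had the pattern between balance and paternal expression in L888, and in L882 it reached both sides. In L888 its shares were 41.6%, 96.7% and 57.5% in the reproductive sisters and 97.6%, 94.4% and 97.1% in the sterile sisters. The 4 sisters above the gap were of both statuses; the exact 95% interval was 34.2 to 49.2% in L888 Reproductive 1 and 88.5 to 99.6% in L888 Reproductive 2. In L882 the reproductive sisters had 54.1%, 47.4% and 100%, and the sterile sisters 100%, 43.2% and 36.1%. The 2 sisters at 100% had 174 and 89 paternal reads and no maternal read, which allows maternal shares of up to 1.72% and 3.37%. In L875 the shares ran from 28.1 to 43.9%, and in L894 from 50% to 51.03%, so that the same gene varied widely among sisters of some families and hardly among those of L894. The cause of the nearly equal counts in L894 was not tested, and they are not read as balanced expression.

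GB50691 had the same form with a different set of sisters. In L894 the reproductive sisters had 95.6%, 43.4% and 51.3% and the sterile sisters 96.5%, 93.3% and 56.5%. In L888 the sterile sister 2 had 96.9%, while the other 5 sisters lay between 40.6 and 56.0%. All 12 bees of L875 and L882 lay between 39.9 and 57.1%. L888 passed 40 points for GB50691 through 1 bee, and L894 through 3 bees of both statuses.

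GB50867 was 1 of the 3 genes over 40 points in all 4 lineages. In L888 the reproductive sisters had 53.8%, 68.9% and 56.0%, and the sterile sisters 55.8%, 6.19% and 61.8%. L875 had 41.2%, 97.8% and 46.6% in reproductive sisters and 98.2%, 52.1% and 51.5% in sterile sisters. L894 had 46.9%, 98.7% and 56.0%, with 100%, 99.3% and 99.2% in the sterile sisters. L882 had 50.95%, 42.4% and 49.7% in reproductive and 47.9%, 96.7% and 37.7% in sterile sisters. Apart from L888 Sterile 2, the bees of GB50867 were either between 37.7 and 68.9% or above 96%, and in L875 both states occurred in reproductive and in sterile sisters. In L894 the 3 sterile sisters were all above 96%.

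The other genes over 40 points in all 4 lineages were GB48512 and GB42985. GB48512 had 0.303%, 47.4% and 19.3% in the reproductive sisters of L888 and 31.7%, 99.4% and 5.69% in the sterile sisters. In L875 it had 45.1%, 4.15% and 32.1% in reproductive and 7.79%, 30.95% and 25% in sterile sisters. L894 gave 48.1%, 27.97% and 1.86% in reproductive and 15.3%, 0.877% and 37.3% in sterile sisters. L882 gave 1.05%, 31.6% and 45.6% in reproductive and 6.76%, 20.6% and 21.7% in sterile sisters. With L888 Sterile 2 set aside, the other 23 bees were below 50% for GB48512, at values from 0.303% to 48.1%.

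GB42985 leaned to the maternal side in most sisters of L888 and L894, the Afr x Eur families. It leaned to the paternal side in most sisters of L875 and L882, the Eur x Afr families. Most sisters of each family thus had more reads of the African allele, and the cause was not tested. In L888 the reproductive sisters had 34.8%, 33.3% and 55.2%, and the sterile sisters 34.2%, 86.0% and 30.01%. L875 had 94.99%, 51.2% and 69.8% in reproductive and 92.8%, 92.0% and 51.6% in sterile sisters. L894 had 37.8%, 17.6% and 74.0% in reproductive and 10.2%, 19.6% and 80.6% in sterile sisters. L882 had 95.5%, 24.8% and 69.8% in reproductive and 94.3%, 90.1% and 80.5% in sterile sisters. The L875 sisters did not go under 51.2%, whereas 4 of 6 sisters were under 40% in L888 and in L894.

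GB43657 reached opposite extremes in different families. In L875 the shares were 53.9%, 2.48% and 55.05% in reproductive sisters and 51.9%, 50% and 3.73% in sterile sisters. In L888 they were 59.1%, 50.7% and 53.0% in reproductive sisters and 93.8%, 98.0% and 97.8% in sterile sisters. L882 had 1 sister far from the rest, L882 Sterile 3 at 96.7%, and the other 5 lay between 44 and 67.9%. In L894 the 6 sisters lay between 56.2 and 63.0%. Sterile sisters stood above reproductive sisters without overlap in L888, while the 2 low sisters of L875 were 1 of each status.

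**Figure D3:**
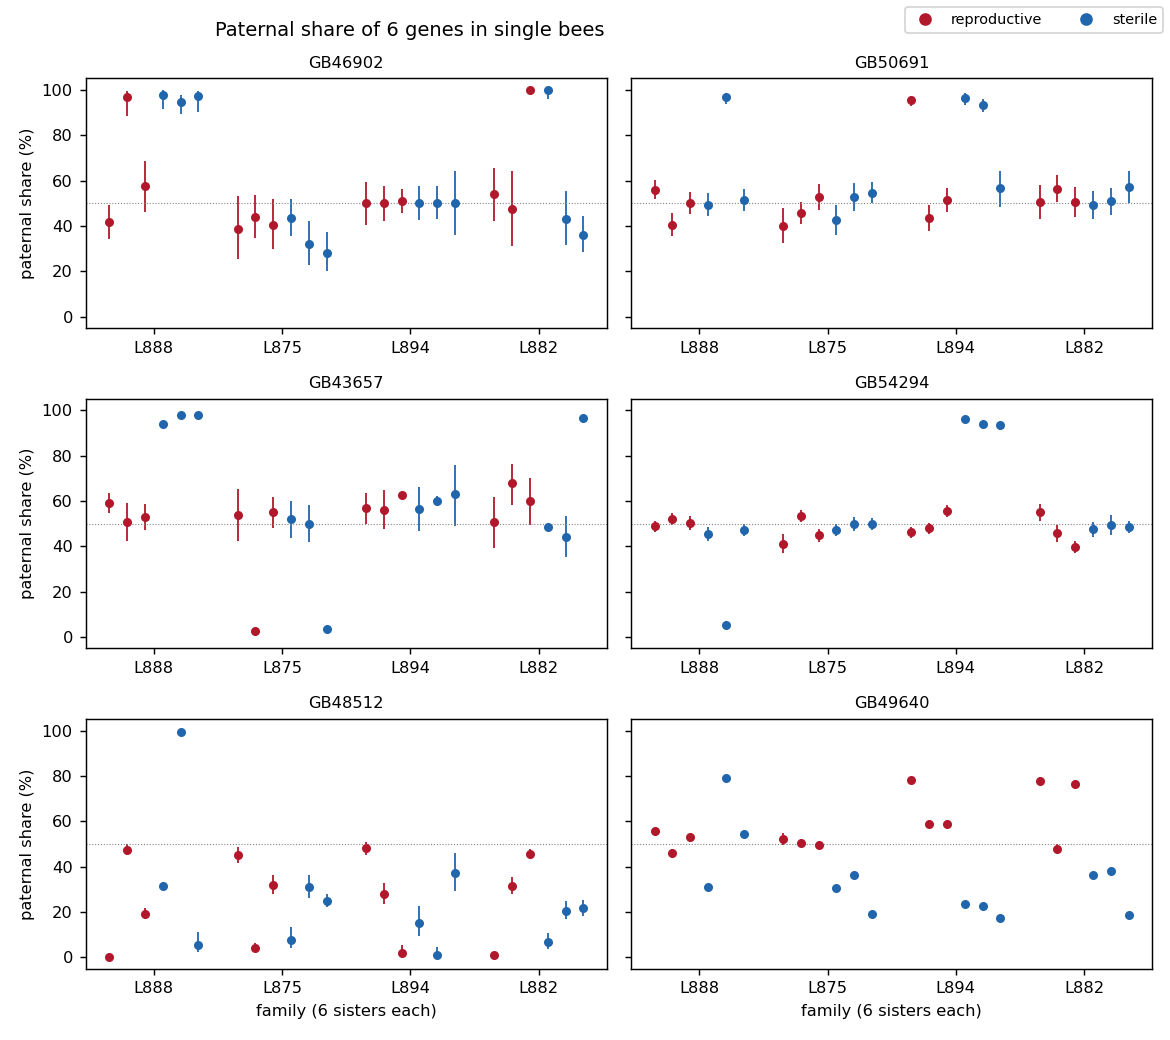
Paternal share (%) of 6 genes in the 6 sisters of each lineage, reproductive (red) before sterile (blue), with exact 95% binomial intervals that cover counting error only and the dotted line at 50%. GB54294 shows the 3 sterile sisters of L894 at 93.3 to 95.9% above the 3 reproductive sisters at 46.1 to 55.5%, and L888 Sterile 2 at 5.46%.

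The widest mean ranges over the 4 lineages belonged to GB44481 (71.3 points) and GB54468 (60.5). GB44481 had 100%, 84.2% and 0% in the reproductive and 59.1%, 99.8% and 75.1% in the sterile sisters of L888, the widest range of all at 100 points. L888 Reproductive 1 had 70 paternal reads and no maternal read, and L888 Reproductive 3 had 138 maternal reads and no paternal read, which allows shares of the missing allele of up to 4.29% and 2.17%. This gene had a mean expected count of 0.0417 per bee in the table of total expression, so its allele reads have no counterpart there. GB54468 had 73.9%, 72.8% and 15.4% in the reproductive and 88.9%, 57.8% and 59.0% in the sterile sisters of L875, and 95.6%, 84.7% and 81.5% in the reproductive and 53.0%, 38.3% and 25.4% in the sterile sisters of L894. In L894 the 3 reproductive sisters were above the 3 sterile sisters for GB54468, and in L875 the groups overlapped.

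The widest ranges of the single lineages after these had varied forms. GB49394 had the widest range in L875 (73.8 points), with 95%, 35.9% and 91.3% in reproductive and 96.2%, 22.3% and 87.7% in sterile sisters, so that 1 sister of the reproductive and 1 of the sterile group stood below the others. In L882 the widest range was that of GB49922 (96.2 points), with 20.03%, 35.1% and 100% in reproductive and 90%, 3.81% and 26.03% in sterile sisters. GB50892 came next in L882 (83.2 points), with 92.9%, 23.7% and 43.6% in reproductive and 66.9%, 9.64% and 82.1% in sterile sisters. Its shares filled the scale and formed no separate clusters.

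GB50136 had the widest range in L894 (94.5 points), and it rested on 1 bee. The reproductive sisters had 94.5%, 85.5% and 0%, and the sterile sisters 83.0%, 90.7% and 91.9%, with no paternal read among 233 in L894 Reproductive 3. In L888 the same gene had 97.9%, 98.5% and 52.0% in reproductive and 51.6%, 97.4% and 49.4% in sterile sisters. In L875 its 6 sisters lay within 0.0784 points of each other, at 228 paternal and 228 maternal reads in L875 Reproductive 1 and 363 of each in L875 Sterile 3. GB50136 thus ranged from nearly equal counts in a whole family to both extremes in another. The L875 shares lay closer together than counting error alone would leave them at such read numbers. They are therefore not read as balanced expression, and the cause was not tested. GB54471 had 47.5%, 14.7% and 42.4% in the reproductive and 8.66%, 58.9% and 100% in the sterile sisters of L894 (91.3 points), and no expected count in any bee.

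Over the 165 genes, a parent's allele without any read was rare and mostly maternal: 38 values had no maternal read and 6 had no paternal read. The summed paternal share of a lineage had a median of 59.4% in L888, 51.7% in L875, 59.5% in L894 and 57.3% in L882 over the chosen genes, and of 51.8%, 50.3%, 51.9% and 50.6% in the same order over the other genes. The number at or above 55% was 101 in L888, 59 in L875, 104 in L894 and 90 in L882, and the number at or below 45% was 28, 25, 17 and 16. Genes at or above 55% in all 4 lineages had been removed by the rule, which lowers these values. L888 without its bee Sterile 2 had medians of 56.4% in the chosen and 51.4% in the other genes, with 93 chosen genes at or above 55% and 27 at or below 45%.

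Single bees contributed unequally. In L888 Sterile 2, 56 of the 165 genes lay at least 40 points from the median of the other 5 sisters, 35 above it and 21 below. The other bees of L888 had 6 to 14 such genes, and all other bees of the study 5 to 28. The same bee was the highest or lowest sister in 83 of the 122 pairs that passed in L888, the highest in 53 and the lowest in 30. Among the other 2255 genes, 40 lay at least 40 points above the sister median in L888 Sterile 2 and 18 below. Its sisters had 4 to 7 such genes above and 4 to 20 below. Over all 2420 genes, which include the 165, 4.71% lay that far from the sister median, against 0.289 to 1.65% in the other bees. The median paternal share of L888 Sterile 2 over genes was 53.8%, against 51.02 to 51.4% in its sisters.

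Without L888 Sterile 2, 60 of the 122 pairs of L888 fell under 40 points. The rule then gave 124 genes of 2441 with enough reads, of which 118 were among the 165. Leaving out any other single bee gave counts of up to 166. Shares at 80% or more made up 18.8% of the values of the chosen genes without this bee and 20.1% with it, and shares at 20% or less 2.90% and 3.33%. The allele reads of L888 Sterile 2 (4.75 M) were the lowest of L888 and within the range of all bees, and its expected counts (10.2 M) lay within the range of L888. The cause of its distance was not tested.

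**Figure D4:**
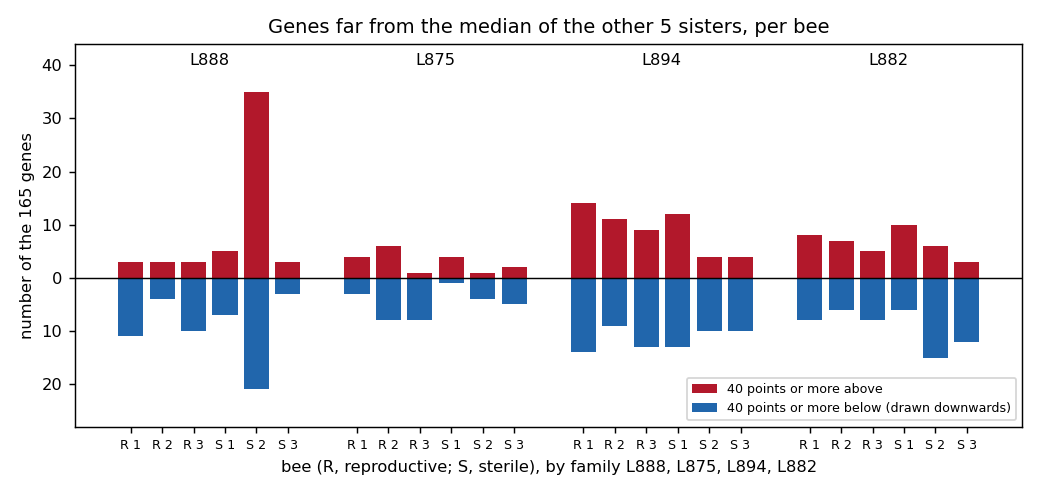
Number of the 165 genes whose paternal share in a bee lay at least 40 points above (red, upwards) or below (blue, downwards) the median of the other 5 sisters, by lineage and bee (R reproductive, S sterile). L888 Sterile 2 has 35 above and 21 below; the other bees have 5 to 28 in all.

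Reads of each allele were then followed apart, as log2 reads-per-million values (RPM, scaled to all allele reads of a bee). These values come from the reads that chose the genes and are a description. In the 376 pairs that passed, the SD among the 6 sisters had a median of 1.45 for maternal reads, 0.730 for paternal reads and 0.545 for their sum. Maternal reads varied more than paternal reads in 287 of 376 pairs (76.3%), in 166 of 284 pairs (58.5%) of the same genes under 40 points, and in 5058 of 9020 pairs (56.1%) of the other genes. Without L888 Sterile 2 the first share was 76.6% over the same 376 pairs, which include 60 pairs of L888 that fall under 40 points without it.

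The difference depended on where the sisters lay. In the 185 pairs between balance and paternal expression the median SD was 1.69 for maternal and 0.616 for paternal reads, and the maternal one was larger in 161. In the 20 pairs between the maternal extreme and balance the medians were 0.855 for maternal and 1.40 for paternal reads, and the maternal one was larger in 8. In the 171 pairs that reached both sides they were 1.34 and 0.819, with the maternal one larger in 118. A low share of an allele implies few reads of it, which widens its SD on a log scale, so these values partly restate the sorting.

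In GB50691 the sisters at the paternal extreme in L894 had few maternal reads and more paternal reads. L894 Reproductive 1, Sterile 1 and Sterile 2 had 17, 8 and 21 maternal reads, against 181, 183 and 70 in Reproductive 2, Reproductive 3 and Sterile 3. Their paternal reads were 39.8, 47.3 and 46.9 RPM, against 18.5, 29.2 and 26.4 RPM in the other 3. The sum of both alleles of GB50691 in L894 had an SD of 0.17 on the log2 scale, against 1.89 for maternal and 0.53 for paternal reads alone. GB54294 had the same form, with 48, 72 and 47 maternal reads in the sterile sisters of L894 and 868, 939 and 593 in the reproductive sisters, and with 243, 176 and 189 RPM of paternal reads in the sterile and 79.7, 115 and 112 in the reproductive sisters.

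GB43657 had another form, in which the favoured allele had many more reads and the other had numbers near those of the sisters. In L875 the sisters at 2.48% and 3.73% had 4566 and 2656 maternal reads, where the other 4 had 35 to 98. Their paternal reads were 116 and 103, within the range of 41 to 120 of the other 4. In L888 the 3 sterile sisters had 1109, 4062 and 4491 paternal reads, against 301, 72 and 157 in the reproductive sisters. The total expression of GB43657, in TMM-scaled counts-per-million (CPM), did not follow these reads: it was 17.3 and 29 CPM in L875 Reproductive 2 and L875 Sterile 3 and 14.4 to 25.6 CPM in the other 4 sisters.

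**Figure D5:**
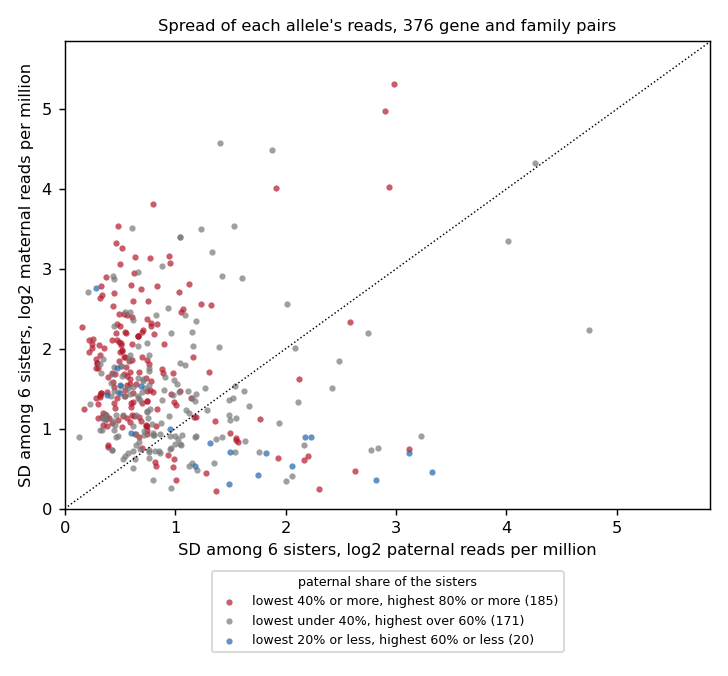
SD among the 6 sisters of log2 paternal (x) and log2 maternal (y) RPM for the 376 pairs of gene and lineage, coloured by where the lowest and highest sister lay. Points above the dotted line of equality, 287 of 376, have more variable maternal reads; of the 185 pairs between balance and paternal expression (red), 161 lie above it.

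Some of the genes carried the same reads. GB44959 and GB45202, GB46257 and GB46259, and GB46902 and GB46904 had identical paternal and maternal counts in all 24 bees, so the 165 genes hold 162 distinct profiles. Likeness was measured by Pearson's r of the deviations from the lineage mean over the 24 bees, which share their libraries, and no p is given. An r of 0.9 or more was met in 15 of 13530 pairs of chosen genes (0.111%) and in 0.0113% of all pairs of the 2420 genes. The chosen genes were picked for wide differences in these same shares, so nothing is read from the larger percentage. Of the 15, 12 were not identical, with the highest values for GB43135 with GB43184 (0.9999), GB55386 with GB55623 (0.999) and GB54321 with GB54390 (0.998). Without L888 Sterile 2 there were 16 such pairs.

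Pairs of like genes often had neighbouring identifiers. Of the 15 pairs, 10 had identifier numbers at most 20 apart, where 79 of the 13530 pairs did in all. The median r was 0.22 over the 79 pairs and 0.02 over the rest. How identifiers relate to position was not analysed here. Of the 165 genes, 29 belonged to a pair with an r of 0.9 or more, and a lower r does not show that genes vary independently.

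Allele reads and total expression came from separate tables and did not run in parallel. A mean expected count under 1 per bee was found in 24 of the 165 genes (14.5%), 15 of them without a count in any bee, and in 271 of the 2255 other genes (12.02%), 148 of them without a count. Allele reads outnumbered expected counts in 94 chosen genes (57.0%) and in 1591 other genes (70.6%). Among genes with a mean expected count of at least 1, the median ratio of allele reads to expected counts was 0.933 in 141 chosen genes and 1.96 in 1984 other genes. In 6 of the 165 genes (3.64%) at least 90% of the nonzero allele counts were multiples of one whole number between 2 and 10, and in 111 of the 2420 genes (4.59%). Whether a read enters these tables more than once was not tested, and the sources used here do not give the assignment rule.

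The gene with the most allele reads, GB49778, showed how far the tables could part. In L882 its reproductive sisters had 177420, 32262 and 336255 paternal reads and the sterile sisters 3024, 3205 and 4212, with paternal shares of 98.2%, 91.7% and 96.9% against 55.2%, 57.5% and 53.9%. Maternal reads were 3244, 2918 and 10924 in reproductive and 2458, 2372 and 3607 in sterile sisters. Total expression was 62.4, 50.4 and 68.1 CPM in the same reproductive sisters and 65.4, 49.5 and 72.6 CPM in the sterile sisters. The groups were far apart in allele reads and overlapped in total expression.

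The next comparison asked whether the parental ratio of allele reads in these genes differed between reproductive and sterile workers. A difference between statuses also widens the sister range, so this test is not independent of the choice of genes. With edgeR over 3414 genes, 0 of the 165 genes had a different parental ratio at an adjusted p of 0.05, against 0% of all genes called, and 3 chosen genes and 100 genes in all had an unadjusted p under 0.05. By limma on log ratios, 0 were called and 6 chosen genes (3.64%) and 161 genes in all (4.72%) had an unadjusted p under 0.05.

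GB49640 had the smallest p of the 165. Its shares in L888 were 55.7%, 45.9% and 53.0% in reproductive and 31.1%, 79.3% and 54.5% in sterile sisters. L875 had 52.4%, 50.6% and 49.6% in reproductive and 30.7%, 36.5% and 19.1% in sterile sisters. L894 had 78.3%, 59.0% and 58.8% in reproductive and 23.5%, 22.7% and 17.2% in sterile sisters. L882 had 77.8%, 47.9% and 76.4% in reproductive and 36.2%, 38.0% and 18.6% in sterile sisters. The reproductive sisters of GB49640 stood above the sterile sisters without overlap in L875, L894 and L882, and the groups overlapped in L888. The log2 difference in the ratio of paternal to maternal reads was 1.62 (SE 0.42, adjusted p = 0.844 by edgeR). Without L888 Sterile 2 it was 1.86 with an adjusted p of 0.0767, and in block B alone 2.61 with an adjusted p of 0.0324. In block A alone it was 0.57 with an adjusted p of 1.

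Block B alone, with L894 and L882, gave 6 of the 165 genes, 5 with a higher and 1 with a lower paternal to maternal ratio in reproductive bees, where 0.838% of 3459 genes were called in all, 0.607% higher and 0.231% lower. The genes were chosen for wide sister differences in these same reads, so nothing is read from the larger share, and the values are a description. Block A alone gave 0 of the 165, and 2 genes in all. GB48697 differed by 2.63 (SE 0.25, adjusted p = 0.00203 by edgeR), GB52246 by 2.86 (SE 0.32, adjusted p = 0.00430), and GB54294 by -2.10 (SE 0.19, adjusted p = 0.00203). GB49778 (2.45), GB49640 and GB53595 (0.55), the last chosen after its values were seen, were the others. In this fit each value is the mean of the status differences in L894 and L882, so it need not hold in either lineage. A change in 1 of these lineages cannot be told apart in it from a change of the African or European allele with status. Whether the blocks differed was not tested.

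In GB48697, GB52246 and GB54294 the groups did not overlap in L894 and overlapped in L882, while in GB49778 they did not overlap in L882. GB48697 had 96.1%, 96.0% and 97.0% in reproductive sisters of L894 and 36.6%, 48.3% and 39.3% in sterile sisters, while in L882 it had 45.8%, 51.2% and 61.1% in reproductive and 60%, 54.2% and 40% in sterile sisters. GB52246 had 99.5%, 96.3% and 97.0% in reproductive and 50.4%, 56.4% and 45.9% in sterile sisters of L894. GB54294 was the reverse, with 46.1%, 47.9% and 55.5% in reproductive and 95.9%, 93.9% and 93.3% in sterile sisters of L894, and 54.96%, 45.8% and 39.7% against 47.4%, 49.5% and 48.3% in L882. In L888 the 3 genes were at 99.0%, 97.5% and 5.46% in L888 Sterile 2, in that order, and between 40.9 and 59.5% in the other sisters.

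Total expression was not used by the rule and could be tested. Of the 165 genes, 137 had enough counts. Between reproductive and sterile brains edgeR called 0 of the 137 chosen genes, against 0% of 9830 genes tested, and 3 chosen genes and 235 genes in all had an unadjusted p under 0.05. DESeq2 called 0 chosen genes and 1 gene in all, and limma voom called 0 chosen genes. The median size of the log2 difference was 0.09 in the chosen genes and 0.09 over all genes. GB50946 had the smallest p, at 6.88 ± 1.8 CPM in reproductive and 9.08 ± 3.1 CPM in sterile bees (SD, n = 12 each), and a log2 value of -0.39 for reproductive over sterile brains (SE 0.14, adjusted p = 0.9998 by edgeR).

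The spread of total expression among sisters had close medians in chosen and other genes. The SD among sisters of log2 CPM had a median of 0.33 in the 137 chosen genes and 0.34 in 1908 other genes. It was 0.34 and 0.36 in L888, 0.36 and 0.38 in L875, 0.28 and 0.28 in L894, and 0.30 and 0.30 in L882. The mean SD over lineages ran from 0.08 to 2.88 over the chosen genes. The highest was that of GB48512, which had 0.0660, 117 and 27.04 CPM in reproductive and 155, 0.654 and 13.6 CPM in sterile sisters of L888. In L888 Reproductive 1, GB48512 thus had 330 allele reads with almost no total count. GB55613, chosen after its values were seen, came next at 2.26.

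Across the 4 lineages, edgeR called 6 of the 137 chosen genes (4.06% of 9830 genes were called). DESeq2's likelihood ratio test called 23 (16.8%, against 14.1% of all genes), and limma voom 6 (4.38%, against 4.28%). The 6 were GB42039, GB50691, GB40110, GB42985, GB49689 and GB43657, with adjusted p values of 0.00381, 0.0142, 0.0167, 0.0167, 0.0254 and 0.0362. The share of 6 in 137 is near that over all genes and is not a result about these genes. GB43657 was no longer called when any 1 of 12 bees was left out, with an adjusted p of up to 0.0667.

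GB42039 had higher counts in block A than in block B, with 3406 ± 1834 CPM in L888 and 3635 ± 1651 CPM in L875, against 1538 ± 316 CPM in L894 and 1255 ± 180 CPM in L882 (SD, n = 6 each). GB50691 had 38.8 ± 6.1 CPM in L888, 44.98 ± 11.6 in L875, 27.2 ± 3.2 in L894 and 27.4 ± 5.7 in L882. GB42985 had 21.2 ± 21.1 CPM in L888, 163 ± 175 in L875, 6.88 ± 2.6 in L894 and 50.1 ± 97.1 in L882. Blocks and families cannot be told apart here, and the spread within L875 and L882 for GB42985 came from single sisters, with 490 CPM in L875 Reproductive 1 and 248 CPM in L882 Reproductive 2.

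Between the cross directions of a block, edgeR called 0 of the 137 chosen genes for L888 over L875, against 0.214% of 9830 genes (0.122% higher, 0.0916% lower), and 0 for L894 over L882, against 0.122% (0.0712% higher, 0.0509% lower). Unadjusted p values under 0.05 were met in 13 chosen genes (9.49%, against 13.3% of all genes) for L888 over L875 and in 22 (16.1%, against 13.2%) for L894 over L882. DESeq2 called 2 in each (1.46%), against 0.916% and 0.845% of all genes. GB49476 had the smallest p in block A, with 97.0 ± 23.7 CPM in L888 and 41.0 ± 15.5 CPM in L875 (SD, n = 6 each), which is 1.24 on the log2 scale (SE 0.31, adjusted p = 0.139 by edgeR and 0.0109 by DESeq2). GB49689 had the smallest p in block B, with 3.14 ± 2.7 CPM in L894 and 0.263 ± 0.38 CPM in L882, a log2 difference of 3.17 (SE 0.77, adjusted p = 0.154 by edgeR and 0.00438 by DESeq2). Leaving out single bees gave 2.76 to 4.50 for GB49689, with 4.50 without L882 Reproductive 2 and 3.99 without L882 Sterile 3. Without L888 Sterile 2, edgeR called GB42985 for L888 over L875 (log2 difference -3.91, adjusted p = 0.0478). It was the only chosen gene called there (0.725%), where 0.413% of all genes were called, and nothing is read from 1 gene.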

How the data were processed

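PolyA RNA of 24 single worker brains was sequenced as paired ends over 2 lanes, and groups were taken from the sample labels. HISAT2 and limma appear in the submitters' processing notes with neither version nor role; the sources used here do not give the genome build, the counting tool or the rule that assigned reads to alleles. The deposited allele tables hold read counts per gene for the drone and the queen allele of each bee, per the file headers, and repeated entries were identical and were used once. The deposited expression table holds expected counts, not scaled by the authors to a common total, which were rounded here to whole numbers. No column of per-bee values was left unused.

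The 165 genes were chosen on the paternal shares themselves, and members, lists, tests and alternatives were chosen with earlier results of these data known. Total expression was tested with edgeR 4.0.16 in R 4.3.3 (TMM, filterByExpr, quasi-likelihood): lineage and status as terms, or 1 mean per group for cross directions. Allele reads were tested with 1 column per bee and parent, each bee its own term, plus terms for parent, African or European allele and their change with status; genes needed 20 allele reads in every lineage of each status. P values are two-sided except for the F test across lineages, and were adjusted over all genes tested by Benjamini-Hochberg at 0.05. DESeq2 1.42.0 and limma 3.58.1 are named where their p values are given; other adjusted p values come from edgeR. Log2 CPM used a prior count of 2 and log2 allele reads a prior of 0.5 reads. A count of 0 reads was taken to allow 3. Intervals of shares are exact (Clopper-Pearson) at 95%. The fits were also run on simulated data. The simulated parental shares had the same modest spread among bees in every gene, unlike those of the chosen genes. The run therefore does not show how the parental ratio test behaves on the chosen genes.

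Genes were named by rule: the widest mean ranges, the most lineages passed, the most allele reads, the widest ranges per lineage, those nearest the threshold, the most alike pairs, and called genes or that with the smallest p. GB50867, GB53595 and GB55613 were added after their values were seen. The labels do not say that bees of a group came from separate colonies, so p values measure the spread between these bees. Alternatives were other read minimums, ranges and numbers of lineages, sisters of 1 status alone, genes with a high paternal share kept, other size factors, no filter, DESeq2, limma, other priors, scaling of allele reads to expected counts, each block alone and each bee left out. Added after the data were seen were the status of L888 exchanged, identical genes counted once, genes with a mean expected count of at least 1, a likeness of 0.8, and allele spread, likeness, patterns and combinations without L888 Sterile 2.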

Additional observations from a re-analysis of the deposited data

Results flagged for a closer look

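Among 124 groups of 6 sisters, 20 had a highest or lowest bee that was far from the nearest sister relative to the range of the group, past Dixon's critical value at 95%, and chance flags about 1 in 20 groups. That rate does not hold for shares of genes chosen for wide sister ranges, so the number of such groups is a description, and it counts 2 pairs of genes with identical reads under both names. L888 Sterile 2 accounts for 4 measures of whole bees: 56 genes at least 40 points from the sister median, a median paternal share of 53.8% over genes, 22 genes at a share of 20% or less and 80 at 80% or more. The same bee stood apart from its L888 sisters in single genes, above them in GB44959 and GB45202 (96.1% each, from identical reads), GB48697 (99.0%), GB50691 (96.9%) and GB52246 (97.5%), and below them in GB49394 (35.3%) and GB54294 (5.46%). The cause was not tested.

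Other bees stood apart in single genes. In L875 these were L875 Reproductive 3 in GB49922 (31.2%, below its sisters), L875 Reproductive 1 in GB50946 (77.2%, above) and L875 Reproductive 1 in GB54471 (47.9%, above). L888 Reproductive 1 stood below its sisters in GB49922 (37.2%). In L882, L882 Reproductive 2 stood below in GB42985 (24.8%). In L894, L894 Sterile 1 stood above in GB49476 (80.6%), L894 Reproductive 3 stood below in GB50136 (0%) and above in GB46902 and GB46904 (51.03% each, from identical reads, where the other 5 sisters lay from 50% to 50.3%).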

How the results depend on the processing

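The number of genes chosen followed the thresholds. It was 316 with a minimum of 10 allele reads, 69 with 100, 354 with a range of 30 points and 61 with 50. It was 495 with 1 lineage required, 43 with 3 and 3 with 4. The reproductive sisters alone gave 53 genes and the sterile sisters alone 65, and the range from the second lowest to the second highest sister gave 23. Leaving out single bees gave 124 to 166. With a likeness of 0.8 there were 26 pairs of like genes in place of 15.

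For total expression across lineages, DESeq2 called 23 genes in place of 6, and leaving out single bees gave 5 to 11, with 11 without L888 Sterile 2, 11 without L882 Sterile 3 and 10 without L894 Sterile 2. Calls over all genes rose too, to 14.1% with DESeq2 and to 7.35%, 5.27% and 7.08% without these bees, against 4.06%. GB42039, GB50691, GB40110, GB42985 and GB49689 were called in each of 28 settings and GB43657 in 16. For the cross directions DESeq2 called 2 genes in each block. Leaving out single bees gave 0 to 1 for L888 over L875 and 0 to 0 for L894 over L882. The 1 gene was called without L888 Sterile 2, where calls over all genes were 0.413%, against 0.214% with all bees. The parental ratio by status gave 6 genes in block B alone and 0 to 0 with single bees left out, and 0 with the status of L888 exchanged. The median SD of total expression among sisters was 0.317 to 0.341 with single bees left out. No paired analysis was possible because the labels give no replicate numbers that pair reproductive with sterile bees. Lineage was a term in the fits of total expression by status and in limma on log ratios. The edgeR fit of the parental ratio had a term for each bee. It had none for differences of that ratio between lineages of the same cross direction. Shares of genes with few allele reads have wide counting intervals, and 1 family per cross direction and block limits what the lineages can show. The causes of these changes were not tested.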
